A study of Mus musculus with 4 samples.

Results

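These results describe the 613 autosomal genes that lay among the 1000 most strongly H3K9-acetylated genes of both chromatin libraries of the study. H3K9ac is acetylation of histone H3 at lysine 9, and both libraries were made by chromatin immunoprecipitation and sequencing (ChIP-seq) from leukaemic mouse bone marrow. The members were chosen by the measured values themselves: the 9398 autosomal genes of the deposited table were ranked by level in each library, and a gene was a member if its rank was 1000 or better in both. The 613 are 6.52% of the autosomal genes, and 61.3% of each top 1000. Another 387 genes reached the top 1000 in the first library only, 387 in the second only, and 8011 in neither. Since the ranks chose them, the high levels of the members are a description and not a result.

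The first library, labelled WT, came from mice with both Gfi1b alleles floxed (Gfi1b fl/fl), the NUP98-HOXD13 transgene (Nup98 tg) and no Mx-Cre (MxCre wt). The second, labelled tg, came from mice with the same floxed alleles and the same leukaemia transgene that also carried Mx-Cre (MxCre tg). Neither is therefore a healthy marrow, and the submitters' name WT refers to Cre only. NUP98-HOXD13 is a fusion oncogene that models myelodysplastic syndrome and acute myeloid leukaemia in mice. Mx-Cre is a recombinase under an interferon-inducible promoter that is active in blood cells and in other tissues, and the floxed target encodes GFI1B, a repressor that recruits histone demethylase and deacetylase complexes. The design asks how this mark differs with Cre, and there was 1 H3K9ac library for each genotype, so differences between the genotypes have no replicate check and no test was made. The labels give neither the ages nor the number of animals behind a library.

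Acetylation of H3K9 is laid down by acetyltransferases of the GCN5/PCAF family and removed by histone deacetylases. It loosens nucleosomes at the starts of transcribed genes and is read by bromodomain and YEATS proteins. In most cell types the strongest H3K9ac lies just downstream of CpG-rich promoters of genes that nearly every cell transcribes, while lineage genes often carry it at enhancers as well.

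The deposited level of a gene is the mean over its probes, the genomic windows in which the authors counted reads, of the log2 of the reads scaled to a total of 1000000. A read was worth 3.23 scaled reads in the WT library (scaling total 309649 reads) and 6.11 in the tg library (163712 reads). The number of whole reads at every member could be worked out from its values. These totals were worked out from the scaled values and are not to be taken as the sequencing depth. Members rested on 51 to 1133 reads in WT, with a median of 78, and on 27 to 366 in tg, with a median of 38. With probe lengths and positions not given in the sources used here, levels of different genes are compared per probe and not per base. No column of the table matched the rabbit IgG libraries, and the background they measure was not analysed here. Gfi1b itself had 12 reads over 4 probes in WT and 108 in tg. This is acetylation over unplaced probes and does not measure whether the floxed exons were deleted. The libraries also differ in sex-linked signal, with 28 and 0 reads at the Y gene Uty, and the sexes are not in the labels.

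Promoters are shown here for 6 members, because the members' promoters were richer in CpG than those of other genes and because neighbouring members often shared a probe. They are Irf2bp2, Arrdc3 and Cd47 from the highest ranks, the head-to-head pair Hnrnpa2b1 and Cbx3, and the histone gene Hist1h4h. Each is the 300-base RefSeq window (GRCm38.p6) from 250 bases before the start to 50 bases into the transcript, written in the direction of transcription. The windows are chr8:126593937-126594236 on the minus strand for Irf2bp2, chr13:80883134-80883433 on the plus strand for Arrdc3, chr16:49855404-49855703 on the plus strand for Cd47, chr6:51469845-51470144 on the minus strand for Hnrnpa2b1, chr6:51470366-51470665 on the plus strand for Cbx3 and chr13:23530794-23531093 on the plus strand for Hist1h4h. Capitals mark matches, on either strand, to the short motifs GGGCGG of SP and KLF factors, CCAAT of NFY, CCGGAAG of ETS factors, AGATAA of GATA factors and TGACGTCA, the cyclic AMP response element. They are windows at the annotated starts, not the probes that were counted.
Irf2bp2: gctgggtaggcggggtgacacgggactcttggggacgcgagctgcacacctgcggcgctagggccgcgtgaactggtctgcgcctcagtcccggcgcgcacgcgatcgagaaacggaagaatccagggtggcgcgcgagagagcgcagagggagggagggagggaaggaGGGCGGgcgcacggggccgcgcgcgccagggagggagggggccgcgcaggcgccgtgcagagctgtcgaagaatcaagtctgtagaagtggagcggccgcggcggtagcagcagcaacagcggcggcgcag
Arrdc3: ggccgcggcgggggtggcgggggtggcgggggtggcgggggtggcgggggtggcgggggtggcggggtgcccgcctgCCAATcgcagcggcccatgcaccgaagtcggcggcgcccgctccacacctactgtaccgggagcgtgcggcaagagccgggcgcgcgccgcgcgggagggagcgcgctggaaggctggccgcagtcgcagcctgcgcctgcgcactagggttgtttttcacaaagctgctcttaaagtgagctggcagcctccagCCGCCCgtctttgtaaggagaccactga
Cd47: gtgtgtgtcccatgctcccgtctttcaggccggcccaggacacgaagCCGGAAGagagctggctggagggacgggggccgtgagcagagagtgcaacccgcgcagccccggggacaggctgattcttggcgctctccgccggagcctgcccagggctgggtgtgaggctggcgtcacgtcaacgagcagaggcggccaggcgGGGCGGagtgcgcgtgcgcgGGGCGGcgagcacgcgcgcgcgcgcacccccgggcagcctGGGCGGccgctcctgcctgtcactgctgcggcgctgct
Hnrnpa2b1: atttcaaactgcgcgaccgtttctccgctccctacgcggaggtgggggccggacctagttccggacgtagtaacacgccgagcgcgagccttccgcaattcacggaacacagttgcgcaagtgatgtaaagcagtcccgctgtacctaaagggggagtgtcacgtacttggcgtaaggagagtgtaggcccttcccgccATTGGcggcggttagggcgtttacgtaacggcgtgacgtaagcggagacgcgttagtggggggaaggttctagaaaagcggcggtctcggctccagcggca
Cbx3: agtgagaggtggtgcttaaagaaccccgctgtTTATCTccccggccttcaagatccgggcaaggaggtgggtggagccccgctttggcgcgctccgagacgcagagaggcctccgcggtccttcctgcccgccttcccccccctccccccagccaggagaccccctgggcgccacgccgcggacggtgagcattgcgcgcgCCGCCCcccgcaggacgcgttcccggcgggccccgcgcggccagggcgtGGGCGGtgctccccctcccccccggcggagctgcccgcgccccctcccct
Hist1h4h: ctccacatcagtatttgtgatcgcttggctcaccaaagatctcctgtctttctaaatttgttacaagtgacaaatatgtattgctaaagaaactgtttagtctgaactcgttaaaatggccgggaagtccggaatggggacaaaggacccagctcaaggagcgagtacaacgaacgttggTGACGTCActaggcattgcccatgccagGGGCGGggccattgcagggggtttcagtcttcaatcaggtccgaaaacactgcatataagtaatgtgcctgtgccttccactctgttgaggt

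These windows differ from each other in composition. That of Irf2bp2 holds 39 CpG dinucleotides and 1 GGGCGG match. That of Cd47 holds 35 CpG and 3 such matches, with an ETS match further upstream, and that of Arrdc3 has a CCAAT box and 35 CpG. Hnrnpa2b1 and Cbx3 start 722 bp apart on opposite strands, with 34 CpG in each window, and their common promoter is widely used in expression vectors as a chromatin-opening element. The Hist1h4h window is the exception, with 10 CpG, a GC content of 47.7% and a complete TGACGTCA.

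**Figure D1:**
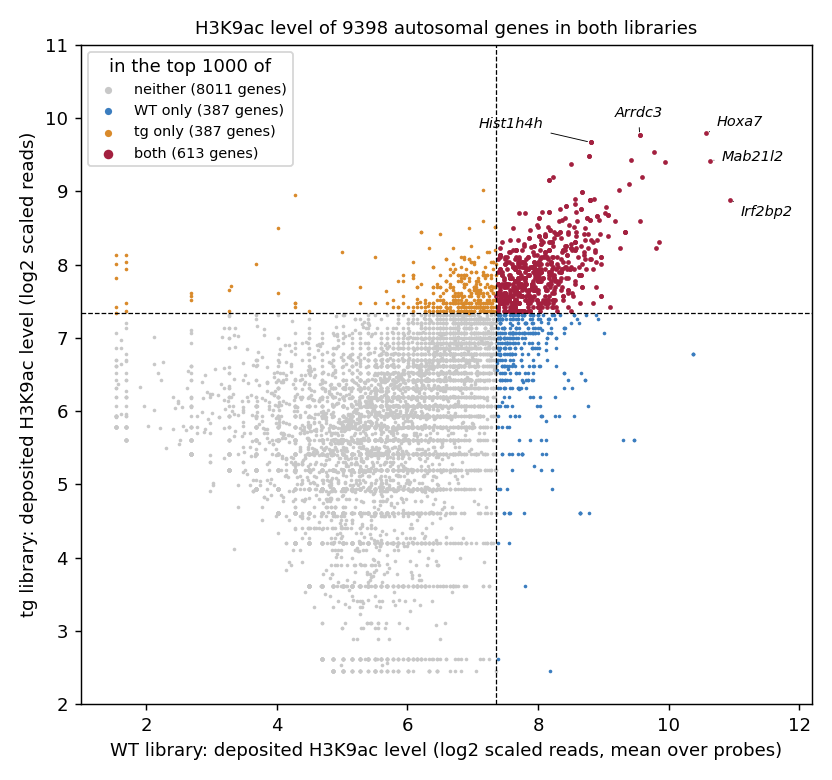
Deposited H3K9ac level of each of the 9398 autosomal genes in the WT library (x axis) and the tg library (y axis), both in log2 scaled reads averaged over a gene's probes. Dashed lines mark the levels at rank 1000 (7.36 and 7.34); the 613 members, in red, fill the upper right corner by construction, and Irf2bp2 has the highest WT level (10.93) with a tg level of 8.88.

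The highest members were a mixture of a leukaemia-linked homeobox gene, surface proteins and general regulators. Hoxa7, a HOX factor that NUP98 fusions keep active in this kind of leukaemia, had the smallest mean of the 2 ranks. It lies at chr6:52214491-52221854 (mm10) and had 2 probes with 250 and 883 reads in WT and 72 and 294 in tg. Its 883-read probe is shared with Hoxa9, as described below. The reads of its other probe are those of the tallest probe of Hoxa3 in both libraries. Mab21l2, better known from eye and limb development, had 493 reads in WT and 112 in tg. Irf2bp2, a corepressor that binds IRF2, had 605 reads in WT, the highest deposited level there, and 77 in tg, where it ranked 26.

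Arrdc3, an arrestin-family adaptor, had 233 reads in WT and 142 in tg (scaled levels of 752 and 867). Cd47, the surface signal by which cells avoid being engulfed by macrophages, had 272 and 122 reads. Arid2, a DNA-binding subunit of the PBAF remodelling complex, had 213 and 113, which are scaled levels of 688 and 690. Ddx6, an RNA helicase of mRNA decay bodies, had 187 and 85 reads, Irgm1, an interferon-inducible GTPase, 163 and 72, and Sos2, a guanine nucleotide exchange factor for RAS, 235 and 63. All of these are 1-probe genes except Hoxa7. Of the 10 highest autosomal genes in WT 7 were members, and of the 50 highest 41. In tg these counts were 10 and 48, and the ranks that give them also define membership.

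At the other end, ranks were set by single reads. Rank 1000 in WT fell at 51 reads, a level that 32 genes shared and ties by identifier divided. Tpra1 (51 reads in WT) was just inside that ranking, beside Hoxb7 with 105 reads over 2 probes, while Pih1d1 and Trim28, each with 51 reads, were just outside. In tg, Ggnbp2 and Kbtbd12 (log2 level 7.34 each) were just inside, and Rfx3 and Picalm (both 7.32) just outside. Of these inside genes Tpra1 was a member, while Hoxb7, Ggnbp2 and Kbtbd12 missed the other library's top 1000. Among the members, the levels in the 2 libraries had a Spearman correlation across genes of 0.51, against 0.58 over all autosomal genes. Both describe genes of the same 2 libraries, some of which share a probe, and the selection narrows the range of the first.

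Genes for RNA processing were the most frequent kind among the lists examined. Of 70 genes for spliceosome subunits, SR proteins and heterogeneous nuclear ribonucleoproteins (hnRNPs) with a probe, 29 were members, or 41.4%, against 6.52% of all autosomal genes. The median level of the whole list was 163 scaled reads in WT and 140 in tg, against 61.4 and 66.0 over all autosomal genes. Another 6 were in the top 1000 of WT only and 1 of tg only. Counting a gene by its tallest probe in place of the mean gave 35 of 70 at or above both rank 1000 levels, among them Srsf3, whose 3 probes held 5, 7 and 179 reads in WT and 7, 8 and 52 in tg.

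The hnRNP genes, whose products coat nascent transcripts and steer splicing and export, supplied the highest of these levels. Hnrnpa2b1 had 167 reads in WT and 67 in tg, from the probe it shares with Cbx3. Hnrnpa0 had 162 and 68, Hnrnpu, which also organises chromatin, 166 and 55, and Hnrnpk 116 and 60. Hnrnpa3 stood apart with 155 and 31 reads, a scaled ratio of tg to WT of 0.378 (95% interval 0.249 to 0.559). Hnrnph1 had 114 and 32 (0.531, 0.347 to 0.792). The intervals here are exact conditional binomial ones, which cover counting error only and treat reads as independent molecules.

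Among the SR proteins and their partners, which bind exonic enhancers, Srsf2 had 116 and 40 reads, Srsf6 109 and 37, Srsf4 85 and 40, and Srsf1 76 and 39. The kinases Clk1 (145 and 47) and Clk4 (92 and 52), which phosphorylate SR proteins, were members too. Ddx5, a helicase of spliceosomes and microRNA processing, had 137 and 64 reads, Rbm39 131 and 59, Sf3b1, the branch-point component mutated in human myelodysplasia, 109 and 32, and Son, a speckle scaffold, 89 and 69. In all, 20 of the 29 were lower in tg than in WT and 9 higher, with a median log2 difference of -0.21, against -0.08 over all 613 members. Only Hnrnpa3 among the 29 differed by 2-fold.

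Among the lists with 18 or more genes with a probe, histone genes were the next most frequent. The replication-dependent histone genes, transcribed in S phase without polyadenylation, gave 14 members of 58 (24.1%). These 14 rest on 10 distinct sets of values, since clustered histone genes share probes. With neighbours of identical values merged before ranking, the share of histone genes was 18.5%. That was below the chromatin regulators (27.6%) and the cytosolic ribosomal protein genes (19.2%), so the order of these lists is not firm. The list's median level was 79.1 scaled reads in WT and 113 in tg. Hist1h4h, an H4 gene at chr13:23531044-23531519, had 139 reads in WT and 133 in tg, a scaled ratio of 1.81 (1.42 to 2.31), and Hist1h2af carries the same values. Hist2h2ab, Hist2h2be and Hist2h2ac on chromosome 3 share 1 probe with 138 and 77 reads. Of the linker histones, Hist1h1b had 117 and 74 reads, Hist1h1c 120 and 63, Hist1h1e 121 and 45 and Hist1h1d 61 and 27. The list had 0 genes in the top 1000 of WT alone and 6 in that of tg alone, and 8 of its 14 members were higher in tg. Copies of histone genes are nearly identical, and with the treatment of reads with several matches not given in the sources used here, single histone genes are uncertain. Of 9 variant histone genes, H2afx (81 and 42 reads), the DNA damage variant, and H3f3a (39 and 134 reads at its probes in WT, 21 and 43 in tg) were members.

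Chromatin regulators formed 11 members of 58 (18.97%), with list medians of 100.01 scaled reads in WT and 88.6 in tg. They included enzymes with opposite actions. Ep300, a histone acetyltransferase, had 125 and 71 reads. Ncor1, the corepressor that carries HDAC3, had 126 and 83, on a probe it shares with its neighbour Pigl. Ezh2 (109 and 56) and Suz12 (53 and 40) are subunits of Polycomb repressive complex 2, Setd2 (92 and 45) methylates H3K36, and Kdm5a (67 and 27) demethylates H3K4. Arid2, Smarce1 (92 and 40) and Chd1 (98 and 35) are remodellers. Brd2, a bromodomain reader of acetylated histones, had probes of 36 and 179 reads in WT and 22 and 67 in tg. Of the 11, 5 were higher in tg and 6 lower, between log2 differences of -0.57 (Chd1) and 0.51 (Suz12), and each differed by less than 2-fold. The list does not hold every member of this kind. Ino80, a remodelling ATPase outside it, had 146 and 34 reads, a scaled ratio of 0.440 (0.294 to 0.643).

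Genes of the translation machinery were split between cytosol and mitochondrion. Of 78 cytosolic ribosomal protein genes 13 were members (16.7%), from Rps18 with 63 and 48 reads and Rpl36al with 85 and 47 to Rpl31 with 62 and 28. Their log2 differences ran from -0.40 (Rps6, 85 and 34 reads) to 0.53 (Rps18). Of 38 translation factor genes 5 were members (13.2%), with Eif4a2, the helicase that unwinds 5′ leaders, at 100 and 57 reads and Eif3a at 114 and 48. Of 65 mitochondrial ribosomal protein genes 2 were members (3.08%), Mrps7 (57 and 35) and Mrps18b (199 and 57), and the values of Mrps18b are also those of Ppp1r10 next to it. Of 68 subunits of oxidative phosphorylation, only Atp5c1 of the ATP synthase was a member (69 and 37 reads, 1.47%). That list's medians, 61.4 scaled reads in WT and 73.3 in tg, lay at or slightly above those of all autosomal genes, so the list was of ordinary level with few genes at the top.

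Other housekeeping and stress classes lay between these. Of 28 immediate-early and AP-1 genes 4 were members (14.3%): Cxcr4, the chemokine receptor that holds cells in the marrow, with 179 and 63 reads, Atf4, the factor of the integrated stress response, with 107 and 37, Ier2 with 89 and 39, and Ier5 with 79 and 33. All 4 were lower in tg, as were 356 of all 613 members. This list had 5 genes in the WT top 1000 alone and 0 in that of tg alone, where each of these holds 387 of the 9398 autosomal genes. Of 51 proteasome and ubiquitin genes 6 were members (11.8%), among them Ube2d3, a ubiquitin-conjugating enzyme, with 89 and 52 reads and Ube2m, which conjugates NEDD8, with 105 and 41. Cyclins, CDKs and E2F genes gave 5 of 48 (10.4%), namely Cdk13 (106 and 65), Cdk11b (53 and 30) and Ccnl1 (105 and 50), whose products act on transcription and splicing, and the cell cycle inhibitors Cdkn1b (93 and 50) and Rbl1 (61 and 34). The BCL2 and p53 list gave 2 of 22 (Trp53inp1 and Bcl2l13), actin genes 3 of 40 and chaperones 3 of 45. Zinc finger genes named Zfp, Zkscan or Zscan were infrequent, with 7 of 210 (3.33%), led by Zfp335 at 80 and 65 reads.

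**Figure D2:**
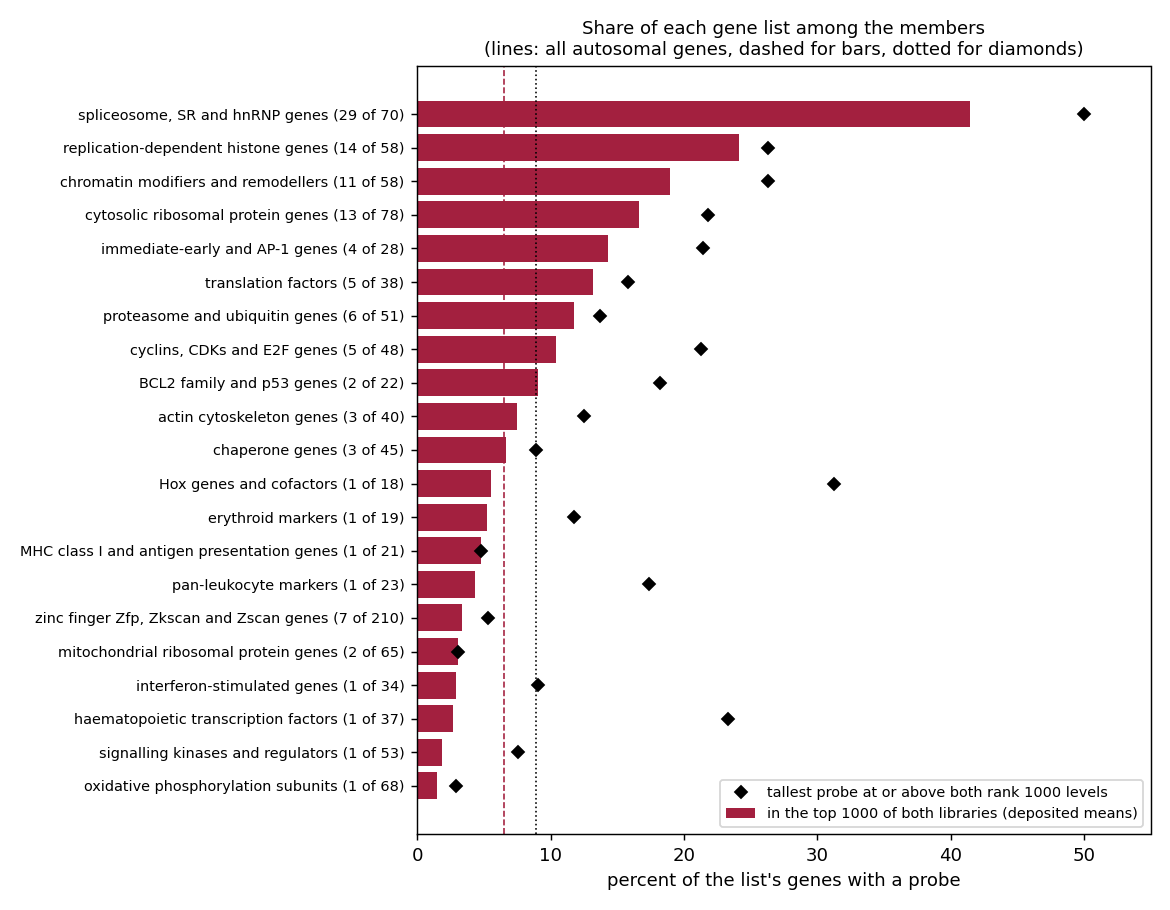
Percent of the genes with a probe in each fixed list of 18 or more such genes that were members (red bars) and percent of those with recovered reads whose tallest probe reached both rank 1000 levels (black diamonds). Dashed and dotted lines give the same for all autosomal genes (6.52% and 8.87%); the spliceosome list leads with 41.4%, and the haematopoietic factors and Hox genes move most between the measures.

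Few genes that mark blood lineages were members, and few had a probe at all. The lists for erythroid, neutrophil, monocyte and dendritic, B, T and NK, and megakaryocyte cells together name 169 genes, of which 54 had a probe and 1 was a member (as were 6.52% of all autosomal genes): Tfrc, the transferrin receptor of iron-loading and dividing cells, with 82 reads in WT and 53 in tg. A further 3 were in the top 1000 of WT only and 4 of tg only. Of 23 pan-leukocyte genes Cd47 was the only member, of 21 MHC class I and presentation genes B2m (142 and 29 reads), of 34 interferon-stimulated genes Irf2 (119 and 57), and of 53 signalling genes Stat6 (78 and 37). The interferon list does not hold every such member: the interferon-inducible Irgm1 (163 and 72 reads) and Ly6e (287 and 52) are members outside it. Counted by the tallest probe, 4 of 23 pan-leukocyte genes (17.4%) and 2 of 17 erythroid genes (11.8%) reached both rank 1000 levels, against 8.87% of autosomal genes. The shares were 9.09% for interferon-stimulated, 7.69% for monocyte and dendritic, 7.55% for signalling and 4.76% for MHC class I genes. The neutrophil, B, T and NK, and megakaryocyte lists had 0. Of the 3 genes with a probe in the list of liver, neuron, muscle and testis markers, 0 were members. Some lineage lists differed between the libraries. The sums and 2-fold counts that follow use each gene's deposited mean, turned back from log2 for the sums. They are not reads added over probes, and weaker probes lower the value of a gene with several. Such genes were 10 of the 19 erythroid, 2 of the 7 neutrophil, 7 of the 14 monocyte and dendritic and 13 of the 23 pan-leukocyte genes. The 19 erythroid genes summed to 629 in WT and 2275 in tg. Of them 17 were at least 2-fold higher in tg (16.5% of all autosomal genes were) and 1 at least 2-fold lower, with Epor, Rhag and Hbb-b1 at 0 reads in WT. The 7 neutrophil genes summed to 362 and 95.2, with 6 at least 2-fold lower (15.6% of all), 0 at least 2-fold higher and 0 without reads. The 14 monocyte and dendritic genes summed to 1207 and 446, with 8 at least 2-fold lower, 1 at least 2-fold higher and Sirpa at 0 reads in tg. Of 6 megakaryocyte genes 2 were at least 2-fold higher and 2 lower. Of 5 B cell genes 2 were higher and 0 lower, and of 3 T and NK genes 1 was higher and 0 lower. The 23 pan-leukocyte genes summed to 2351 and 1916, with 8 at least 2-fold lower and 1 higher. In such marrow samples a different mix of cells and a different mark per cell cannot be told apart, and the part of cell mix in the members' differences was not tested.

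Averaging over probes affected which haematopoietic regulators were members. Of 37 haematopoietic transcription factor genes with a probe, Ikzf1 alone was a member. It encodes Ikaros, a zinc finger regulator of lymphoid and stem cells, and had probes of 26 and 209 reads in WT and 27 and 90 in tg. Of the 37, 27 had several probes, and among the 30 with recovered reads 7 had a tallest probe at or above both rank 1000 levels (23.3%, against 8.87% of 9276 autosomal genes). A gene with more probes has more chances to reach these levels. Of the 2023 autosomal genes with 2 to 4 probes and recovered reads, 218 did. Zeb2, a repressor of blood stem and progenitor cells, had probes of 14, 29 and 240 reads in WT and of 5, 17 and 96 in tg. Erg, an ETS factor of stem cells, had 9, 11, 21 and 251 in WT and 0, 2, 9 and 37 in tg. Hoxa9, the partner of Hoxa7 in myeloid leukaemia, had 6, 9, 9 and 883 reads in WT and 9, 10, 14 and 294 in tg, and its tallest probe matches the taller probe of Hoxa7 in both libraries. Cdk6, the G1 kinase, had 19 and 223 in WT and 3 and 56 in tg. None of these 4 was a member, since their weaker probes pull the mean of logs down.

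**Figure D3:**
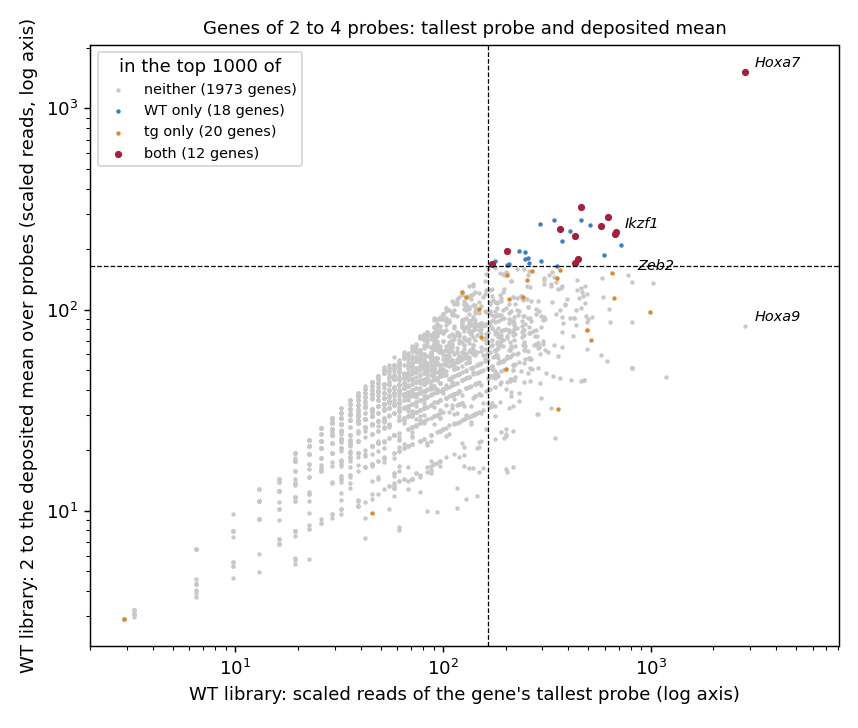
Scaled reads of the tallest probe (x axis, log) against the deposited mean turned back from log2 (y axis, log) in the WT library, for the 2023 autosomal genes of 2 to 4 probes with recovered reads. Dashed lines give the rank 1000 level; Hoxa7 and Hoxa9 have the same tallest probe of 883 reads, and the mean puts Hoxa7 above the line and Hoxa9 below it.

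Nearly all members had a single probe. Of the 613 members 601 (98.04%) had a single probe and 12 had 2, against 77.2% of all autosomal genes with a single probe. The genes in the top of 1 library only were much the same, with 95.3% (WT) and 94.8% (tg), so this goes with a high rank and is not particular to the members. Put the other way, 8.29% of 1-probe genes but 0.559% of the 2145 genes with several probes were members. Of the 2023 genes with 2 to 4 probes, 218 had a tallest probe at or above both levels, and 12 of these were members. The 2-probe members include Epc1, a subunit of the NuA4 acetyltransferase complex, with 71 and 143 reads in WT and 37 and 78 in tg, and the nuclear RNA Malat1 with 42 and 192 in WT and 37 and 73 in tg. In the septin gene Sept7 both probes were alike, with 51 and 53 reads in WT and 25 and 30 in tg. Ranking all genes with recovered reads by their tallest probe gave 592 genes in both top 1000 sets, 445 of them among the 613 (72.6% of the members). Ranking by reads summed over probes gave 566, with 315 of the 613 (51.4%). Genes with several probes are thus under-represented among the members as ranked by the deposited means.

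Many members were counted from the same reads as a neighbour. The 613 genes hold 493 distinct sets of values, and 228 of the members (37.2%) shared all their values with another gene less than 100000 bp away, against 14.8% of the other autosomal genes, 26.4% of those in the WT top only and 25.8% of those in the tg top only. Of these sets 97 held 2 member genes, 10 held 3 and 1 held 4. Protein-coding members that share values and lie on opposite strands made 42 pairs, and in 34 of them the starts pointed away from each other, at a median distance of 96.5 bp. Son and Gart (89 and 69 reads), Ewsr1 and Rhbdd3 (107 and 73) and Sf3a2 and Plekhj1 (89 and 48) are such pairs. The mark of such a pair cannot be assigned to either gene. Some neighbours are of unlike kind: Trpm8, a cold-sensing channel of nerve cells, carries the values of Hjurp, a centromere chaperone, and Arsg those of the transporter gene Slc16a6.

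Small RNA genes were among the members. RefSeq types 527 of the members as protein-coding, 31 as long non-coding, 8 as microRNA and 7 as small nucleolar RNA genes, and 40 were not matched. Mir142, the microRNA of nearly all blood cells, had 155 reads in WT and 45 in tg, a scaled ratio of 0.549 (0.385 to 0.770), and a neighbouring unnamed gene model has the same values. Mir21, a widely induced oncogenic microRNA, had 113 and 108 (1.81, 1.38 to 2.37), which are also the reads of the tallest of the 4 probes of Vmp1, the gene that spans it. Mirlet7i had 129 and 47 (0.689, 0.483 to 0.969). Mir615, in the Hoxc cluster, had 126 and 34 (0.510, 0.339 to 0.751), the reads of the tallest of the 3 probes of Hoxc5. Mir1894 carries the values of Ppp1r10, and Mir1945 (85 and 55) lies beside Gspt1. The main mature forms of the first 3 are shown from RefSeq (GRCm38.p6) with the seed, bases 2 to 8, in capitals, because the seed sets which mRNAs a microRNA can bind.
miR-142a-5p: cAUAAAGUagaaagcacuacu
miR-142a-3p: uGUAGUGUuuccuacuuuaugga
miR-21a-5p: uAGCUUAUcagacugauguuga
let-7i-5p: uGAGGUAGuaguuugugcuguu

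These 4 seeds all differ. Some small nucleolar RNA members sit inside host genes and have their hosts' values: Snord2 carries the 100 and 57 reads of Eif4a2, and Snord14a the 60 and 31 of Rps13. Also 3 gene models of U6 were members, and copies of U6 are hard to tell apart by short reads.

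The 613 genes differed less between the libraries than genes at large, which the choice of genes high in both fixes in part. The median log2 difference of tg and WT was -0.08 with an SD over genes of 0.43, against 0.05 and 1.26 over all autosomal genes, and 503 of the 613 (82.1%) lay within 1.5-fold, against 46.1%. None was 2-fold higher in tg (16.5% of all autosomal genes were), and 13 were 2-fold lower (15.6% of all). The counting interval lay above 1 for 33 members (12.8% of autosomal genes with recovered reads) and below 1 for 92 (12.7%). The ranks used both values of this contrast, so nothing is read from these counts.

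The members lowest in tg relative to WT included a corepressor, a surface antigen and immune genes. Irf2bp2, with 605 and 77 reads, had the lowest log2 difference of -2.05 and a scaled ratio of 0.241 (0.187 to 0.306). Cnot6l, a deadenylase of the CCR4-NOT complex, had 170 and 28 reads (0.312, 0.201 to 0.467). Kifap3, a kinesin-associated protein, had 277 and 49, and Ly6e, an interferon-inducible surface protein, 287 and 52. B2m, the light chain of MHC class I, had 142 and 29, Ino80, the ATPase of a remodelling complex, 146 and 34, Xbp1, the factor of the unfolded protein response, 124 and 29, and Pcf11, a transcription termination factor, 112 and 27. For Irf2bp2, Kifap3 and Ly6e even the lower level in tg, 470, 299 and 318 scaled reads, stayed well above the cut of 162.

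The members highest in tg relative to WT were mostly of modest level in WT, which choosing genes by this difference favours in itself. Arsg and its neighbour Slc16a6 had 89 reads in WT and 93 in tg, a scaled ratio of 1.98 (1.46 to 2.67). Nrip1, a nuclear receptor corepressor, had 69 and 68, Wbp4, a splicing factor, 61 and 59, Ube2k, a conjugating enzyme, 54 and 52, and Il10rb, a cytokine receptor chain, 53 and 46. For Ube2k the ratio of 1.82 had an interval from 1.22 to 2.72, and for Il10rb the ratio of 1.64 had one from 1.08 to 2.48, so the size of these differences is loosely fixed by the reads.

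**Figure D4:**
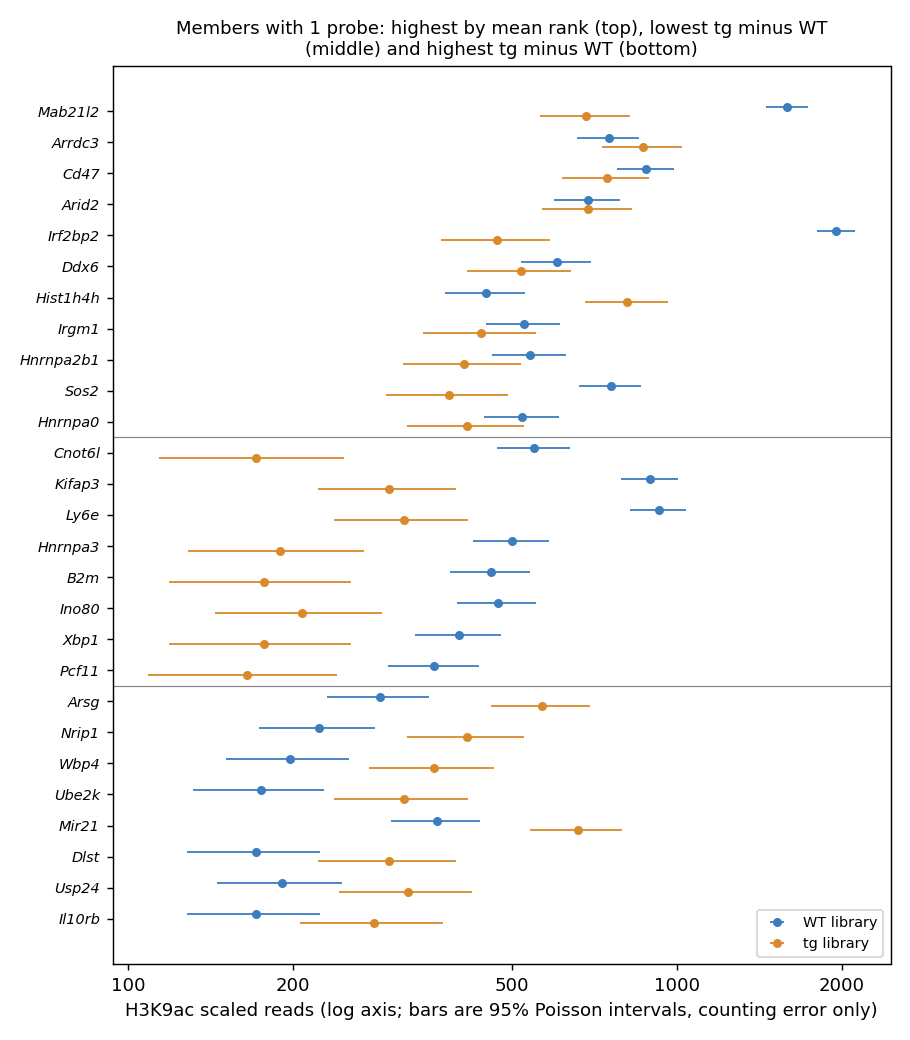
Scaled H3K9ac reads (x axis, log) of named 1-probe members in the WT library (blue) and the tg library (orange), with 95% Poisson intervals for counting error only. The top block has the highest mean ranks, the middle the lowest and the bottom the highest tg minus WT differences, each gene once; the intervals of Arid2 overlap almost entirely, while those of Irf2bp2, Kifap3 and Ly6e are far apart.

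Most protein-coding members had a CpG-rich start, as did a smaller majority of the other protein-coding genes. Promoter windows in the RefSeq table could be matched for 76.2% of all members, too few for a check over all of them, and for 84.1% of the protein-coding members (443 of 527) and 81.7% of the other protein-coding genes of the table (6576 of 8051). The ratio of observed to expected CpG was 0.6 or more in 90.3% of the members' windows, against 79.1% of the others and 47.7% of all protein-coding promoters in the table. The median ratio was 0.924, against 0.7998 in the others, with 0.869 for genes in the WT top only and 0.837 for the tg top only, and median GC content was 65.7% against 61.3%. GC-rich DNA can amplify and sequence with a different yield, and the part of GC in the read counts was not tested. The gene with the smallest mean rank was not of this kind: the window of Hoxa7 had a CpG ratio of 0.405. A second start on the opposite strand within 1000 bp was found for 28.7% of the members and 20.6% of the others, with 21.9% for genes in the WT top only and 26.4% for the tg top only. With genes of identical values counted once the shares were 23.5% and 18.9%, a difference of smaller size.

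**Figure D5:**
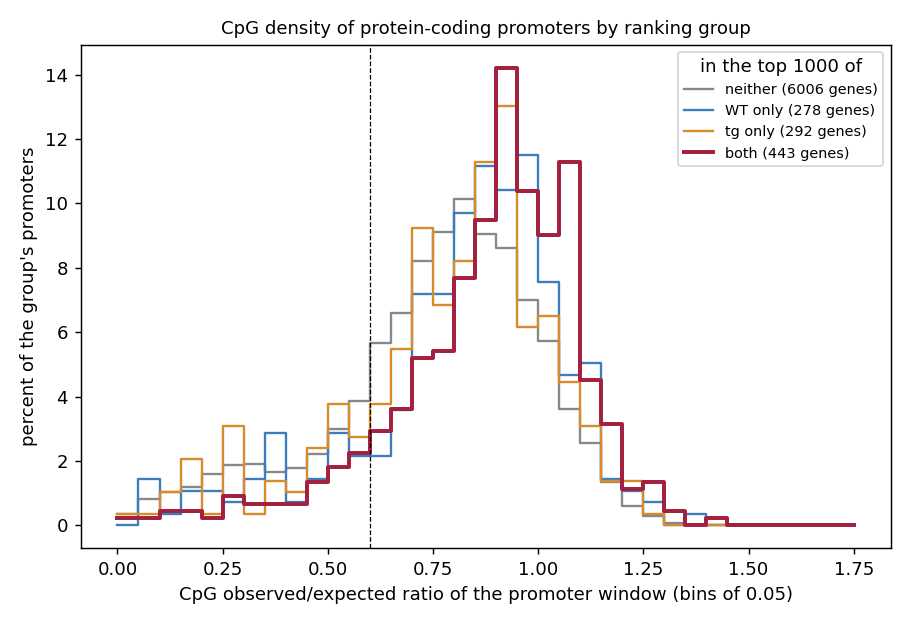
Distribution of the ratio of observed to expected CpG in 300-base promoter windows of protein-coding genes, as percent of each group's promoters per bin of 0.05. The dashed line marks 0.6; the members (red, 443 genes) have the fewest windows below it, with a median of 0.924 against 0.869 and 0.837 for the genes in the top of the WT or tg library only.

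Short motifs were searched by their letters on both strands, and matches overlap with CpG content. GGGCGG was in 71.3% of the members' windows, 67.1% of the other protein-coding genes' and 46.2% of all protein-coding promoters. CCGGAAG (ETS) was in 18.7%, 22.4% and 11.6%, CCAAT (NFY) in 32.1%, 39.4% and 38.2%, and TGACGTCA in 5.19%, 3.89% and 2.23%. Of the motifs of blood factors, AGATAA, bound by GATA factors, was in 3.16%, 5.87% and 9.65%, and TGTGGT, bound by RUNX factors, in 9.03%, 12.01% and 15.0%, while GAGGAAG (PU.1) was in 15.1%, 12.6% and 13.6%. TATAAA was in 6.77%, 6.49% and 12.6%. The AGATAA match of Cbx3 shown above is among 14 such windows. A match is a description of the letters, and neither its presence nor its absence says whether a factor binds.

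The median gene length of the members was 23122 bp, against 22392 bp for all autosomal genes, and the lower quartile was 6176 bp against 9064 bp. With genes of identical values counted once the members' median was 28994 bp. The other genes were not merged for this value, so it is not comparable with the 22392 bp. The share of a chromosome's genes that were members ran from 3.21% on chromosome 8 (16 of 499) to 9.01% on chromosome 15 (32 of 355). Unnamed gene models made up 15.5% of the members and 13.02% of the other genes. The members' probes, each shared probe counted once for its set of genes, held 14.8% of the scaling total of WT and 13.1% of that of tg.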

How the data were processed

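H3K9ac ChIP-seq levels were taken from the authors' deposited table of 9615 mouse genes, which gives, per the file headers, each gene's number of probes and the mean and standard deviation over them. The authors' deposited values are log2 of scaled reads, and the probe number is a count, per the file headers. The submitters' processing notes name CASAVA 1.8.2, FastQC, BWA and SAMtools, with mm10 and GRCm38 as builds. How probes were called and how duplicate reads or multiple matches were handled was not given in the sources used here. Of the 4 samples, the 2 H3K9ac libraries had columns.

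The 215 X and 2 Y genes were left out. Levels were ranked per library, with ties by identifier. Whole reads were recovered, within 0.01 of a read, for genes of 1 to 4 probes (98.7% of genes), with 0 reads entered as 0.9 of a read, after a check on simulated data. Ratios used reads summed over probes and the scaling totals, so for genes with several probes they can differ from the log2 difference. Precision is limited by reads without molecular identifiers, and 95% intervals cover counting error only. Python 3.11.15, numpy 2.4.6, pandas 2.3.3, scipy 1.17.1 and matplotlib 3.10.9 were used. Named were the 12 members of smallest mean rank, the 10 of highest and 10 of lowest difference, up to 4 by rank and 2 by difference per list, those beside the cuts and the 6 with most probes. Unnamed models were passed over and shared probes taken once, and other genes named were chosen after their values were seen. A few genes under this rule are not reported here. The members and the 29 gene lists were chosen with earlier results of these data known. The restriction of promoters to protein-coding genes and the tallest-probe measure for lists were added after seeing the data.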

Additional observations from a re-analysis of the deposited data

How the results depend on the processing

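No paired analysis was possible because there was 1 H3K9ac library per genotype, and for the same reason no library could be left out in turn. The number of members followed the size of the rankings, with 275 genes in both top 500 sets and 1282 in both top 2000 sets. With the top 2000, 36.2% of the chromatin genes and 32.1% of the cytosolic ribosomal protein genes were members. With the tallest probe in place of the mean, 23.3% of the haematopoietic transcription factors reached both levels. Members lower in tg numbered 81 at 1.5-fold and 2 at 3-fold, and members higher in tg numbered 29 at 1.5-fold. With WT reads thinned to the tg total in a single draw, 5 of the 613 were 2-fold higher. Merging members that are neighbours with identical values raised the members' median gene length to 28994 bp. Of 75 settings tried, 55 were labelled the same as the main one and 20 were labelled moved. A value labelled the same was not always close. With the top 2000, such values were 7.35% of oxidative phosphorylation subunits (main 1.47%) and 13.5% of haematopoietic transcription factors (main 2.70%). Ranking by summed reads was labelled the same by its number of genes (566 against 613), but it kept only 51.4% of the members. Of the settings labelled moved, 10 were motif shares in a window that began 100 bases before the start, which is shorter by construction. Others used another ranking size or another fold cut, which changes such counts by construction. The causes of the remaining ones were not tested. Depth limits the lower end: at the cuts, as for Trim28 with 51 and 27 reads, the ratio of 1.00 had an interval from 0.604 to 1.63.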
